A study of Mus musculus with 9 samples.

Results

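Glucose that is not used by glycolysis can enter several side routes that are known from work on diabetic tissue. In the polyol pathway aldose reductase turns glucose into sorbitol, and sorbitol dehydrogenase turns sorbitol into fructose. The hexosamine pathway takes fructose 6-phosphate towards UDP-N-acetylglucosamine, the donor for O-GlcNAc, a sugar tag placed on nuclear and cytosolic proteins. The glyoxalase pathway removes methylglyoxal, a reactive by-product of glycolysis that otherwise forms glycation products. These routes are often studied in the diabetic retina, which takes up much glucose.

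The genes described here are 9 of the 35397 in the deposited table, chosen by symbol: Akr1b3 and Sord of the polyol pathway, the ketohexokinase gene Khk, the metabolic regulator gene Gckr, the hexosamine and O-GlcNAc genes Gfpt1, Gfpt2 and Ogt, and the glyoxalase genes Glo1 and Hagh. Retinal RNA came from wild-type mice (5 libraries, named wild type 1 to 5) and from db/db mice (4 libraries, named db/db 1, 3, 4 and 5), which lack a working leptin receptor and become obese and diabetic. The labels state no age, sex, background strain or batch, nor whether libraries came from different animals; the p-values therefore cover only the spread between these libraries. Values are FPKM, that is, fragments per kilobase of exon, scaled to the size of the library. Of the 9 genes, 8 reached a mean of 1 FPKM over the 9 libraries and were tested together with 14588 genes in all. Gfpt2 stayed below that level, and its change comes from a fit without the filter.

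Libraries held 36.6 megareads (db/db 5) to 47.9 megareads (wild type 1) as recovered from the values. The rod transducin gene Gnat1, a marker of rods, stood between 3937 and 4852 FPKM in every library, and the liver gene Alb at no more than 0.436 FPKM. The library db/db 1 stood apart. It held the highest or the lowest value of the 9 libraries for 71.4% of tested genes, against 9.69% to 26.5% for each of the others. The summed level of 3 skeletal muscle markers (Ckm, Acta1 and Myh4) was 94.1 FPKM in db/db 1, 3.38 to 13.5 FPKM in the other db/db libraries and 1.57 to 2.35 FPKM in wild type. That of 3 pigment epithelium markers (Rpe65, Best1 and Ttr) was 309 FPKM in db/db 1, 51.0 to 148 FPKM in the others and 87.5 to 141 FPKM in wild type. Ttr alone made up 275 FPKM of the 309 FPKM. Best1 was at 0.471 FPKM in db/db 1, close to its wild-type range of 0.204 to 0.428 FPKM. The summed level of 3 blood markers (Hba-a1, Hbb-bs and Alas2) was 54.2 FPKM in db/db 1 and 11.2 to 20.2 FPKM elsewhere. The globin genes Hba-a1 and Hbb-bs carried that sum. Alas2 was at 0.433 FPKM in db/db 1, inside its wild-type range of 0.309 to 0.511 FPKM. None of these 9 markers was at 0 in any library. Across genes within a library, the difference from the mean of all libraries ran with transcript GC content at a Spearman correlation of -0.43 to -0.21 in wild type and -0.0053 to 0.53 in db/db. Results are therefore given with and without db/db 1, and after correction for GC content where that mattered. The part of these differences in the results was not tested.

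In wild-type retina the O-GlcNAc transferase gene Ogt was the highest of the 9 at 49.6 ± 2.21 FPKM (SD, n = 5). Hagh followed at 31.8 ± 1.27 FPKM (SD, n = 5). The pair Gckr (18.6 ± 2.36 FPKM) and Glo1 (17.8 ± 2.28 FPKM) overlapped each other, and Gfpt1 stood just below at 13.8 ± 0.547 FPKM (SD, n = 5 for each). Khk (8.43 ± 0.556 FPKM) and Sord (7.90 ± 0.351 FPKM) also overlapped, above Akr1b3 at 2.72 ± 0.197 FPKM and Gfpt2 at 0.437 ± 0.180 FPKM (SD, n = 5 for each). Apart from those overlaps the wild-type ranges of neighbours in this order were separate. The FPKM of these genes divide by the length of all annotated exons together, which exceeds that of the principal transcript by a factor that differs between genes, from 1 for Sord to 6.04 for Akr1b3. Were all reads from the principal transcript, the wild-type mean of Akr1b3 would be 16.5 FPKM, above 9.57 FPKM for Khk and 7.90 FPKM for Sord. By the same measure Gckr would be at 40.0 FPKM, Gfpt1 at 22.2 FPKM and Glo1 at 21.8 FPKM. The order given above thus depends on the length used. In the deposited values of db/db retina the ranges of Ogt and Hagh overlapped, as did those of Gckr, Glo1 and Gfpt1. Without db/db 1 the ranges of Ogt (37.2 to 43.4 FPKM) and Hagh (31.0 to 34.9 FPKM) were separate. Glo1 then still overlapped Gckr and Gfpt1, which no longer overlapped each other.

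**Figure D1:**
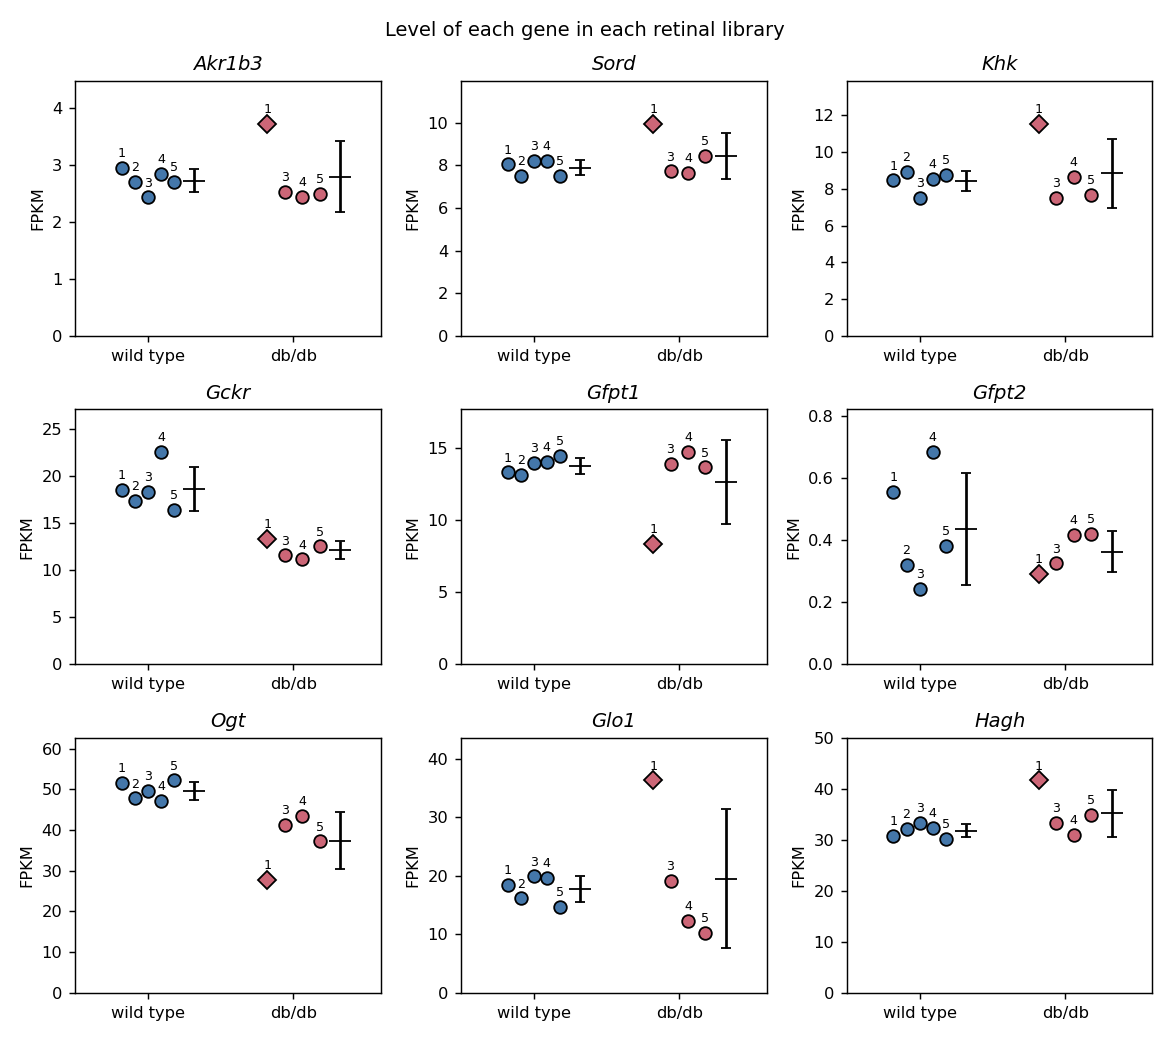
FPKM (vertical axes, from 0) of each of the 9 genes in each library, with wild type in blue and db/db in red; numbers are library numbers, the diamond is db/db 1, and bars give mean ± SD (n = 5 and n = 4). Gckr and Ogt are the 2 genes whose groups do not overlap, as in 11.6% of all tested genes. Library db/db 1 is the highest or lowest in 7 of the 9 genes, beside 71.4% of all tested genes.

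Whether these routes differ in the diabetic retina was asked at the level of RNA. Of the 8 tested genes Gckr fell, none rose, and 7 did not pass (limma, Benjamini-Hochberg over all tested genes, adjusted p under 0.05). That is 12.5% of the 8, where 0.500% of all tested genes passed (0.233% higher and 0.267% lower). The fall of Gckr was known when the genes were chosen, so this contrast does not test them as a set. Gckr and Ogt had an unadjusted p under 0.05, as did 19.3% of all tested genes. Their groups did not overlap, which is 25% of the 8, beside 11.6% of all tested genes (6.38% with db/db lower). The median log2 change of the 8 was -0.0035, beside 0.0035 over all tested genes. Without db/db 1 the genes called were Gckr and Ogt, both lower, and 6 did not pass, where 10.6% of all tested genes passed (5.84% lower). With GC correction as well, Gckr alone of the 8 passed, where 4.89% of all tested genes did. The median in the fit without db/db 1 was -0.09, beside -0.02 over all tested genes.

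Gckr encodes a regulatory protein of sugar phosphorylation, known from liver, that responds to fructose phosphates. The gene (ENSMUSG00000059434) lies on chromosome 5, 31297443 to 31327314 of mm10, plus strand, and no other annotated gene overlaps it. The wild-type libraries held 18.5, 17.4, 18.3, 22.5 and 16.4 FPKM. Those of db/db held 13.3, 11.6, 11.1 and 12.5 FPKM in the order db/db 1, 3, 4 and 5. Every db/db library was below every wild-type library, and db/db 1 was here the nearest to wild type. The mean was 18.6 ± 2.36 FPKM in wild type (SD, n = 5) against 12.1 ± 0.987 FPKM (SD, n = 4), and their ratio was 0.653. On log2(FPKM + 1) the change was -0.57 (SE 0.09, limma adjusted p = 0.0419). Its 95% interval allows a fold of 0.581 to 0.778. Folds and log2 changes here are of FPKM + 1, which understates changes of genes at low levels. The exact two-sided permutation p was 0.00794, the smallest that regrouping 5 and 4 libraries can give. That p is unadjusted and is not independent of the groups not overlapping. In these bulk samples fewer cells of a type and less RNA per cell cannot be told apart.

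The size of the Gckr fall hardly depended on single libraries, while its call did. Without db/db 1 the change was -0.61 (adjusted p = 0.0116), and with GC correction as well it was -0.60 (adjusted p = 0.0180). GC correction over all 9 libraries ended the call at a change of -0.57 (adjusted p = 0.0742). So did the fit without a filter (adjusted p = 0.0767) and the replicate block (adjusted p = 0.428), which adds the replicate number to the fit. With any other single library left out the change was between -0.61 and -0.50, and the adjusted p rose above 0.05. It was 0.11 without wild type 1, 0.122 without wild type 2, 0.144 without wild type 3, 0.0708 without wild type 4, which had the highest value, and 0.138 without wild type 5. Without db/db 3, 4 or 5 it was 0.0792, 0.0797 and 0.113. Over all 20 alternatives the lowest adjusted p was 0.0116 and the highest 0.428.

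The genes whose pattern over the 9 libraries came nearest to that of Gckr were Katnal2, Gpcpd1 and Grm8, by the root mean square difference of centred log2(FPKM + 1). Katnal2, a relative of microtubule-severing katanin, differed by 0.14 and went from 5.56 to 3.17 FPKM. Gpcpd1, a glycerophosphocholine phosphodiesterase gene, differed by 0.15 and went from 7.68 to 5.40 FPKM. Grm8, a metabotropic glutamate receptor gene, also differed by 0.15 and went from 2.88 to 1.94 FPKM. Gckr itself varied by 0.31 on this measure. The 3 were taken as the nearest of 12101 genes, so their likeness is a description.

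Ogt encodes the single enzyme that places O-GlcNAc on nuclear and cytosolic proteins (ENSMUSG00000034160, chromosome X, 101640060 to 101684351, mm10, plus strand). Its wild-type values were 51.5, 47.8, 49.6, 47.1 and 52.2 FPKM. In db/db 1, 3, 4 and 5 they were 27.7, 41.3, 43.4 and 37.2 FPKM. All 4 db/db libraries were below all wild-type libraries, and db/db 1 was by far the lowest. The wild-type mean was 49.6 ± 2.21 FPKM (SD, n = 5) against 37.4 ± 6.96 FPKM in db/db (SD, n = 4). With all libraries the log2 change of -0.42 (SE 0.12, limma adjusted p = 0.111) did not pass. The exact permutation p of 0.00794 is unadjusted. It is not independent of the groups not overlapping, which 11.6% of all tested genes showed. With db/db 1 left out Ogt was at 40.6 ± 3.15 FPKM (SD, n = 3) in db/db, for a log2 change of -0.28 (SE 0.06, adjusted p = 0.0228). With GC correction as well the change was -0.16 (adjusted p = 0.0880) and the groups overlapped. The longest Ogt transcript has a GC content of 42.9%, below the median of 49.8% over tested genes.

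The stretches before the start sites of these 2 genes are shown because their groups were the ones that did not overlap. They are the 250 bases upstream of a RefSeq start (GRCm38.p6, plus strand), chr5:31297313-31297562 for Gckr and chrX:101639801-101640050 for Ogt, the first of 2 RefSeq starts of Ogt. Capitals mark a CCAAT box (CCAAT, here on the minus strand) in Gckr and a GC box (GGGCGG) in Ogt.
Gckr: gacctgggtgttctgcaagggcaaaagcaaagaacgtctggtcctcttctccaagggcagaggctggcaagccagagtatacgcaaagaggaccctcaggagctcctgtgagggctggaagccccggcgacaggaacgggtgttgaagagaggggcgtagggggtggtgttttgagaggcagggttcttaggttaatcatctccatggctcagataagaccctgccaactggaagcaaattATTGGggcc
Ogt: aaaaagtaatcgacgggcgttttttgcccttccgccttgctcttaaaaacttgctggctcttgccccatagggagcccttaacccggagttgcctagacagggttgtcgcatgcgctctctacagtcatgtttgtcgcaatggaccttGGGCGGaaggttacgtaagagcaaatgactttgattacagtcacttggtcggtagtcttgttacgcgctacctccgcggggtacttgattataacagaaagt
RefSeq windows, 10 in all, matched 8 of the 9 genes (Akr1b3 had none in the table used), and 6 motifs were searched on both strands. CCAAT was found in 5 of the 8 and in 33.8% of all 32851 promoter windows of that length. GGGCGG was found in 7 of the 8, all but Gckr, and in 32.7% of all windows. The E-box CACGTG, the core that the glucose-sensing factor ChREBP binds in pairs, was found in Khk alone of the 8 and in 6.02% of all windows. TGGAAA, the core of the osmotic response element bound by NFAT5, was found in Glo1 alone of the 8 and in 18.6% of all windows. Neither TATAAA nor TAATCC, a site of the photoreceptor factor CRX, was found in any of the 8; they were in 12.4% and 6.25% of all windows. Gckr and Ogt thus shared none of the 6 motifs in these windows.

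Neither polyol gene passed. Akr1b3 encodes aldose reductase, the entry to the pathway (ENSMUSG00000001642, chromosome 6, 34302434 to 34317478, minus strand). In wild type it stood at 2.95, 2.70, 2.43, 2.85 and 2.70 FPKM. In db/db 1 it was 3.73 FPKM, above every other library, and in db/db 3, 4 and 5 it was 2.53, 2.44 and 2.49 FPKM, all within the wild-type range. The change on log2(FPKM + 1), a scale that understates changes at this level, was 0.02 (SE 0.10, limma adjusted p = 0.939, 95% fold interval 0.863 to 1.18). It was -0.09 (adjusted p = 0.326) when db/db 1 was left out, with an interval of 0.853 to 1.03. Between 764 and 1441 recovered reads per library stood behind these values.

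Sord encodes sorbitol dehydrogenase, the second step (ENSMUSG00000027227, chromosome 2, 122234749 to 122265340, plus strand). Its wild-type values were 8.05, 7.51, 8.20, 8.20 and 7.53 FPKM, and those of db/db 1, 3, 4 and 5 were 9.97, 7.72, 7.66 and 8.43 FPKM. The db/db libraries 1 and 5 were above the wild-type range and the other 2 within it. The log2 change was 0.08 (SE 0.08, adjusted p = 0.593; fold interval 0.936 to 1.19). Without db/db 1 it was 0.0064 (adjusted p = 0.947), with a fold interval of 0.927 to 1.09.

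Khk encodes ketohexokinase, which phosphorylates fructose to fructose 1-phosphate, one of the sugar phosphates that act on the product of Gckr (ENSMUSG00000029162, chromosome 5, 30921431 to 30931248, plus strand). It was measured at 8.45, 8.90, 7.49, 8.53 and 8.78 FPKM in wild type. The db/db libraries 1, 3, 4 and 5 held 11.5, 7.52, 8.64 and 7.65 FPKM. Only db/db 1 lay outside the wild-type range. The log2 change of 0.04 (SE 0.11, adjusted p = 0.846; fold interval 0.865 to 1.23) turned to -0.08 (adjusted p = 0.451) without db/db 1. With GC correction as well it was -0.18 (adjusted p = 0.139), for a transcript with a GC content of 59.4%.

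The hexosamine entry enzyme did not pass in either of its forms. Gfpt1 encodes the main glutamine:fructose-6-phosphate amidotransferase (ENSMUSG00000029992, chromosome 6, 87042846 to 87092197, plus strand). Wild-type libraries held 13.3, 13.1, 14.0, 14.0 and 14.4 FPKM. In db/db 1 the value was 8.33 FPKM, the lowest of all, while db/db 3, 4 and 5 had 13.9, 14.7 and 13.7 FPKM. The last 3 were within or just above the wild-type range. The log2 change was -0.14 (SE 0.14, adjusted p = 0.597; fold interval 0.729 to 1.13). It was 0.03 (adjusted p = 0.682; fold interval 0.951 to 1.1) without db/db 1.

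Gfpt2, the second form, is low in this tissue (ENSMUSG00000020363, chromosome 11, 49794178 to 49838613, plus strand). It was listed at 0.557, 0.320, 0.243, 0.684 and 0.381 FPKM in wild type and at 0.291, 0.326, 0.417 and 0.420 FPKM in db/db 1, 3, 4 and 5. The db/db values all fell inside the wild-type range. Its values rest on 62.0 to 170 recovered reads per library. The log2 change from the fit without the filter was -0.07 (SE 0.09, adjusted p = 0.762; fold interval 0.827 to 1.1 on the log2(FPKM + 1) scale, which understates changes at this level).

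Glo1 and Hagh encode the consecutive enzymes of the glyoxalase pathway. Glo1 (ENSMUSG00000024026, chromosome 17, 30584936 to 30626871, minus strand) was at 18.4, 16.2, 19.9, 19.7 and 14.7 FPKM in wild type. In db/db 1 it was 36.3 FPKM, 2.04 times the wild-type mean. In db/db 3, 4 and 5 it was 19.2, 12.4 and 10.3 FPKM, the first inside and the other 2 below the wild-type range. No other gene of the 9 was so uneven among db/db libraries. Its coefficient of variation there was 60.4%, and 33.3% without db/db 1, against 12.8% in wild type. The log2 change was -0.02 (SE 0.30, adjusted p = 0.971), with a fold interval of 0.617 to 1.57 that leaves sizeable changes in both directions possible. Without db/db 1 it was -0.36 (SE 0.17, adjusted p = 0.190; fold interval 0.594 to 1.017). In the annotation 1700097N02Rik shares 90 exon bases with Glo1 on the same strand, and AC165962.3 and AC165962.4 share 418 and 214 on the opposite strand, of 12101 exon bases in Glo1. Strand cannot tell apart reads in the bases shared on the same strand. Reads in those shared on the opposite strand can be told apart only where the counting used strand.

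Hagh (ENSMUSG00000024158, chromosome 17, 24840143 to 24864450, plus strand) completes the conversion to D-lactate. The values were 30.8, 32.3, 33.4, 32.4 and 30.3 FPKM in wild type and 41.7, 33.3, 31.0 and 34.9 FPKM in db/db 1, 3, 4 and 5. Libraries db/db 1 and 5 were above the wild-type range and the other 2 inside it. The log2 change was 0.14 (SE 0.08, adjusted p = 0.398; fold interval 0.964 to 1.25). It was 0.05 (adjusted p = 0.512; fold interval 0.959 to 1.12) without db/db 1. Fahd1 (10.5 FPKM) overlaps Hagh on the opposite strand but shares no exon bases with it.

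**Figure D2:**
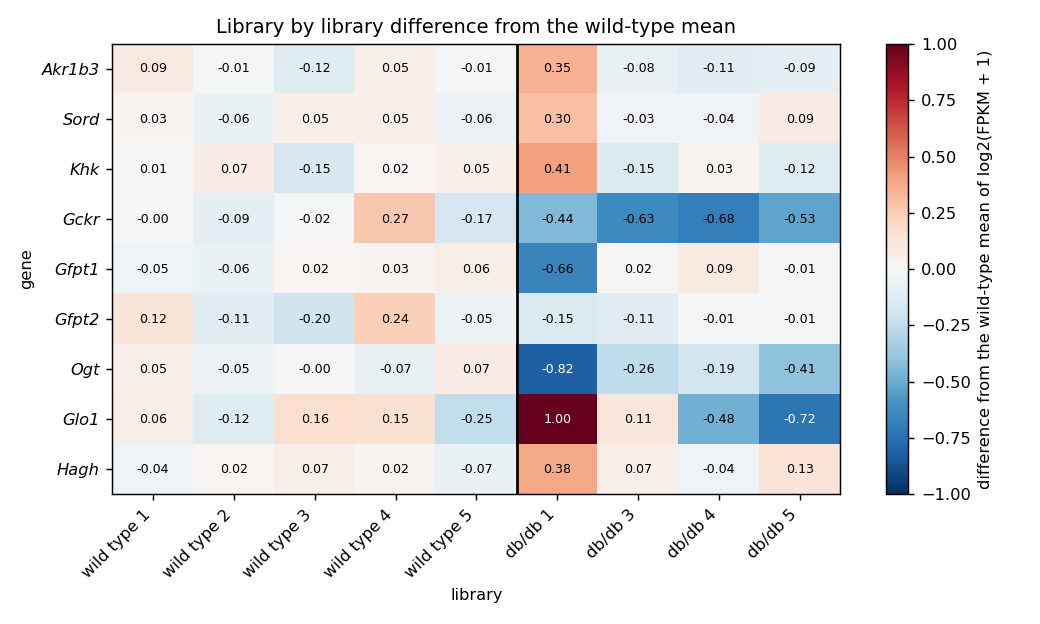
Difference of each gene (rows) in each library (columns) from the wild-type mean of log2(FPKM + 1), in colour and as a number; the black line parts wild type from db/db. Gckr, Ogt and the low Gfpt2 are below the wild-type mean in all 4 db/db libraries, and db/db 1 shows the greatest distance for Glo1, Ogt and Gfpt1.

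Across the 9 genes, db/db 1 gave the highest value in 5 (Akr1b3, Sord, Khk, Glo1 and Hagh) and the lowest in 2 (Gfpt1 and Ogt). Over all tested genes its share of extreme values was 71.4%, as given above. Leaving it out turned the sign of 3 of the 9 changes, those of Akr1b3, Khk and Gfpt1. The spread of db/db fell with it, for Akr1b3 from a coefficient of variation of 22.2% to 1.71% and for Gfpt1 from 23.1% to 3.94%.

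**Figure D3:**
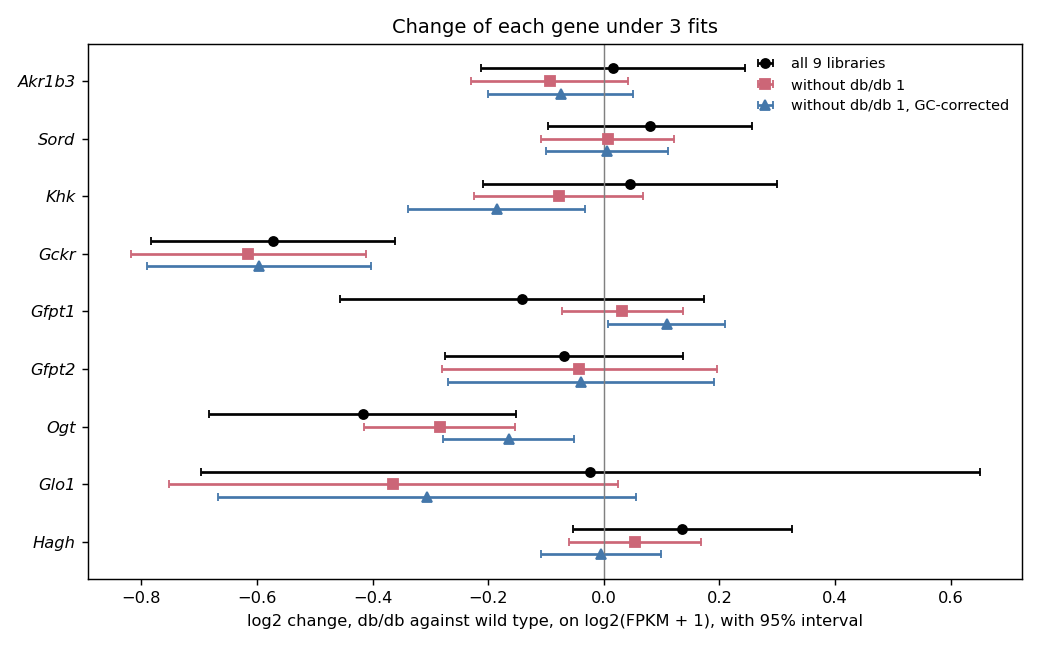
Log2 change of each gene in db/db against wild type on log2(FPKM + 1) with its 95% interval, for all 9 libraries (circles), without db/db 1 (squares) and without db/db 1 after GC correction (triangles). The intervals of Gckr and Ogt lie below 0 in all 3 fits, and that of Glo1 is the widest in each. Among the triangles that of Khk also lies below 0 (-0.338 to -0.0320) and that of Gfpt1 above 0 (0.00753 to 0.210). The intervals are not adjusted for the number of genes. Ogt passed only in the fit shown by squares, and Khk and Gfpt1 passed in none.

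The genes around these enzymes were read from 5 lists of 64 genes in the table, of which 53 were tested, the 8 above included. Of the 45 other tested genes none passed with all 9 libraries (limma), while 10 had an unadjusted p under 0.05, near the 19.3% of all tested genes that did; limma-voom on recovered reads called none of them either. Their median log2 change was 0.05, beside 0.0035 over all tested genes. Without db/db 1, 2 rose, 1 fell and 42 did not pass, a share called that is below the 10.6% of all tested genes in that fit, and the median was 0.02. Those that rose were Hkdc1, a hexokinase-like gene, and Slc6a6, the taurine transporter gene, and the one that fell was Mgea5, which encodes O-GlcNAcase. Hkdc1 and Mgea5 were named after their values were seen.

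In the polyol and fructose list none of 8 other tested genes passed, with or without db/db 1. The highest was Akr1a1, an aldehyde reductase gene, with means of 66.9 ± 2.75 FPKM in wild type (SD, n = 5) and 78.8 ± 19.3 FPKM in db/db (SD, n = 4). The smallest p-values belonged to Dcxr, the xylulose reductase gene (log2 change 0.35, adjusted p = 0.20), and Pfkfb3, a regulator of glycolysis (-0.17, adjusted p = 0.362). With db/db 1 left out these changes were 0.21 and -0.11, and with GC correction as well that of Dcxr was 0.10. The close paralogs of Akr1b3 are named because they could share reads with it, which was not tested. Akr1b10 was at 1.25 FPKM in wild type, beside 2.72 FPKM for Akr1b3. Akr1b7 and Akr1b8 were below the filter. Akr1b8 was at 0.102 to 0.376 FPKM in wild type and at 0.390 to 1.36 FPKM in db/db, without overlap. It did not pass in the fit without the filter (limma adjusted p = 0.375).

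Among the hexokinases Hk1, the main hexokinase of neural tissue, was the highest, with means of 143 ± 10.2 FPKM in wild type (SD, n = 5) and 153 ± 30.05 FPKM in db/db (SD, n = 4), and did not pass (0.09, adjusted p = 0.735); the sign turned with quantile normalization and with GC correction (-0.03 in both). Omitting db/db 1 gave 0.21 (adjusted p = 0.126) for Hk1, and 0.14 with GC correction as well. Hkdc1 stood at 1.995, 1.74, 2.14, 1.86 and 2.14 FPKM in wild type and 2.45, 3.09, 2.95 and 2.82 FPKM in db/db 1, 3, 4 and 5. All db/db values of Hkdc1 were above all wild-type values. Its log2 change was 0.36 (adjusted p = 0.0664) with all libraries, 0.41 (adjusted p = 0.0137) without db/db 1 and 0.34 (adjusted p = 0.0374) with GC correction as well.

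In the hexosamine list 11 other genes were tested and none passed with all libraries. The groups of 3 did not overlap, where 11.6% of all tested genes had groups apart. Mgea5, whose product removes the tag that OGT places, was at 23.0, 21.9, 22.2, 22.9 and 22.6 FPKM in wild type and at 16.9, 19.8, 20.5 and 19.98 FPKM in db/db 1, 3, 4 and 5. Its log2 change was -0.22 (adjusted p = 0.125). It was -0.16 (adjusted p = 0.0317) without db/db 1 and -0.10 (adjusted p = 0.125) with GC correction as well. Eogt, a transferase gene for extracellular O-GlcNAc named after its values were seen, averaged 5.06 ± 0.179 FPKM in wild type (SD, n = 5) and 4.21 ± 0.386 FPKM in db/db (SD, n = 4), for a change of -0.22 (adjusted p = 0.119; 0.0517 without db/db 1). The third was Renbp, a gene of N-acetylglucosamine salvage, with means of 2.55 ± 0.426 FPKM in wild type (SD, n = 5) and 3.72 ± 0.524 FPKM in db/db (SD, n = 4), a change of 0.41 (adjusted p = 0.0967). Of the 3 only Renbp had higher values in db/db.

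None of 10 other tested genes of glyoxalase, deglycation and glycation receptors passed, with or without db/db 1. Park7, the highest, averaged 36.9 ± 1.75 FPKM in wild type (SD, n = 5) and 42.8 ± 15.4 FPKM in db/db (SD, n = 4), and its change of 0.15 turned to -0.07 without db/db 1. Fn3krp and Fn3k, which encode kinases acting on sugars bound to proteins, had the smallest p-values, with log2 changes of 0.21 (adjusted p = 0.194) and 0.15 (adjusted p = 0.247).

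None of the 11 tested osmolyte and glucose-responsive genes passed with all libraries. Txnip, which glucose induces through ChREBP in many tissues, was at 3.75, 2.97, 3.20, 3.44 and 2.65 FPKM in wild type and at 7.62, 3.64, 6.80 and 4.48 FPKM in db/db 1, 3, 4 and 5. The groups overlapped through db/db 3, and the log2 change was 0.62 (adjusted p = 0.111; 0.0743 without db/db 1). Nfat5, the osmotic stress factor that acts on the aldose reductase gene, averaged 9.03 ± 0.290 FPKM in wild type (SD, n = 5) and 7.46 ± 0.804 FPKM in db/db (SD, n = 4) without overlap, a change of -0.25 (adjusted p = 0.111). With db/db 1 left out and GC correction the groups of Nfat5 overlapped and the change was -0.08 (adjusted p = 0.322). Slc6a6, the highest, had a wild-type mean of 225 ± 4.64 FPKM (SD, n = 5) and stood at 139 FPKM in db/db 1 and at 249.9, 258 and 260.1 FPKM in db/db 3, 4 and 5. Its change was -0.04 (adjusted p = 0.920) with all libraries, 0.18 (adjusted p = 0.0296) without db/db 1 and 0.17 (adjusted p = 0.0449) with GC correction as well.

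**Figure D4:**
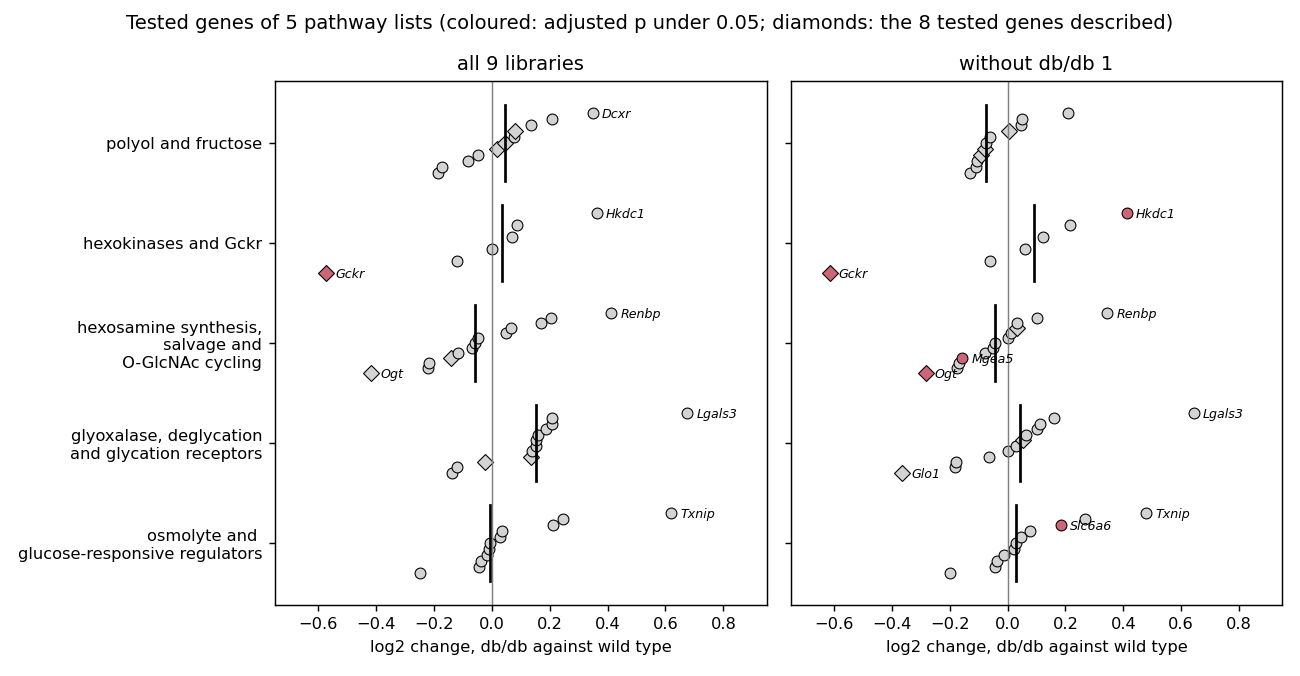
Log2 change in db/db against wild type (horizontal axis) of the 53 tested genes of 5 lists, with all 9 libraries (left) and without db/db 1 (right); diamonds are the 8 tested genes described above, coloured points passed the test, and bars mark each list's median. With all libraries only Gckr is coloured; without db/db 1, Ogt, Mgea5, Hkdc1 and Slc6a6 are as well.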

How the data were processed

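Retinal RNA was extracted and sequenced as SMARTer libraries, per the labels' protocols. FPKM per gene and library were deposited in a single table. The submitters' processing notes name mm10; aligner, counter, annotation and strand of counting are not given there. The numbered Control and DR columns were taken as the WT and db/db titles of the same number. Symbols, positions and exon lengths came from GENCODE M21 (34499 of 35397 identifiers), and upstream sequences from RefSeq (GRCm38.p6).

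Multiplied by exon length, between 98.9% and 99.1% of low FPKM values (under 50 reads) were whole reads within 0.1 read, which gave the depth and the reads per gene. Of these low whole numbers 59.8% to 63.1% were even, depending on the library. Whether each recovered read is a fragment of its own was not tested. The 14588 genes averaging 1 FPKM or more were tested on log2(FPKM + 1) with limma 3.58.1 in R 4.3.3 (lmFit, eBayes with a trend, no covariate), with Benjamini-Hochberg adjustment over all of them and a threshold of 0.05. Single genes were also tested with an exact two-sided permutation test. GC correction subtracted each library's median in 20 bins of transcript GC content (known for 99.3% of tested genes). The fit was tested on simulated data.

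The 9 genes, the pathway lists, the tests and the alternatives were chosen with earlier results of these data known, the fall of Gckr among them. From each list the text names every gene that passed (if none did, the 2 genes of smallest p) and the highest gene; paralogs and genes overlapping the 9 are also named; for Gckr, the 3 genes most like it. Replicate numbers were not taken to pair the samples. Some genes of the lists are not reported here. Figures were drawn with matplotlib 3.10.9.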

Additional observations from a re-analysis of the deposited data

Results flagged for a closer look

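In 2 of 18 groups of values (9 genes in wild type and in db/db) 1 library lay far from the rest, by Dixon's ratio of its gap to the nearest value over the whole range. Akr1b3 in db/db 1, at 3.73 FPKM, gave a ratio of 0.934, and Gfpt1 in db/db 1, at 8.33 FPKM, gave a ratio of 0.833, both above Dixon's 95% critical value for 4 samples. Chance flags about 1 in 20 groups, but the groups of different genes come from the same libraries and are not independent. Both flags fell on db/db 1, which held the highest or lowest value for 71.4% of all tested genes.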

How the results depend on the processing

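No fit called any of the 9 genes higher. The genes lower numbered 1 in the comparison as reported, 0 without a filter, with GC correction and with the replicate block, 2 with array weights, and 0 to 2 with single libraries left out. Over all genes, 34 were higher and 39 lower as reported. The counts were 7 and 2 without a filter, 17 and 13 with a filter at 5 FPKM, 550 and 656 with array weights, 5 and 1 with GC correction, 373 and 341 with that correction when db/db 1 was omitted, 2 and 0 with the replicate block, 46 and 64 with limma-voom, and 3 to 688 and 1 to 852 with single libraries left out. Of the 53 list genes 0 were higher and 1 lower as reported, 2 and 3 with array weights, and 2 higher with GC correction when db/db 1 was omitted. None was lower without a filter, with GC correction or with the replicate block, and with single libraries left out 0 to 2 were higher and 0 to 3 lower.

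The log2 change of Gckr was -0.57 without a filter (adjusted p = 0.0767) and with GC correction (0.0742), -0.59 with the replicate block (0.428), and -0.61 to -0.50 with single libraries left out. That of Ogt passed with array weights (-0.29, adjusted p = 0.0280), and was -0.49 to -0.28 with single libraries left out. Signs turned for some genes that did not pass as reported, with changes there from -0.14 (Gfpt1) to 0.15 (Park7). Of these only Slc6a6 passed after turning, where db/db 1 was left out. With array weights Akr1b3 had -0.069, Khk -0.051, Gfpt1 0.019, Park7 -0.053 and Slc6a6 0.16. With GC correction Khk had -0.10, Glo1 0.026 and Hk1 -0.032, and Hk1 had -0.025 with quantile normalization. With GC correction when db/db 1 was omitted Akr1b3 had -0.075, Khk -0.18, Gfpt1 0.11, Hagh -0.0045, Park7 -0.11 and Slc6a6 0.17. With single libraries left out the ranges were -0.094 to 0.059 for Akr1b3, -0.078 to 0.11 for Khk, -0.22 to 0.032 for Gfpt1, -0.36 to 0.21 for Glo1, -0.066 to 0.29 for Park7 and -0.12 to 0.18 for Slc6a6. Apart from effects of construction (fewer genes or samples), the cause was not tested.

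Deviations of same-numbered libraries correlated at 0.0434, 0.0455, -0.18 and 0.134. Those of libraries with different numbers correlated at -0.21 to 0.18. The labels state no batch, and these correlations cannot exclude a pairing. The replicate block ended the call of Gckr and made no other call among the 9. Over all genes it called 2 higher and 0 lower. Wild type 2 has no db/db library of its number, and the change of Gckr with the block (-0.59) was that without wild type 2. The median log2 change of all genes was 0.0035 as reported, -0.0044 with median-of-ratios scaling and -0.0026 with quantile normalization. Akr1b3 and Gfpt2 have no value under the filter at 5 FPKM.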

Other observations

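Hk2 and Lgals3 of the lists varied widely within a group and are given as values, chosen after they were seen. Hk2, an inducible hexokinase gene, was at 72.1, 162, 105, 58.4 and 91.9 FPKM in wild type 1 to 5 and at 50.6, 90.7, 98.9 and 113 FPKM in db/db 1, 3, 4 and 5. Lgals3, the galectin-3 gene, whose product binds glycation products and which macrophages express, was at 0.354 to 0.877 FPKM in wild type, 1.76 FPKM in db/db 1, 0.883 FPKM in db/db 3, 4.31 FPKM in db/db 4 and 0.618 FPKM in db/db 5. Neither passed the test with all 9 libraries (adjusted p = 0.848 and 0.262).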
